A study of Homo sapiens with 12 samples.

Results

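The p53 target and DNA damage genes are a list of 31 gene symbols, known as targets of the tumour suppressor p53, and all 31 were found by Ensembl identifier among the 57820 identifiers of the gene tables. The cells are AsPC-1, an established human line from pancreatic ductal adenocarcinoma, and RNA was sequenced in 12 libraries that form 4 groups of 3. In siBACH1, *BACH1* was targeted with a transfected small interfering RNA (siRNA) and cells were harvested 24 h later, with siCont as the control of the transfection. SgBACH1 cells were infected with lentiCRISPR v2, a lentivirus that carries Cas9 with a guide RNA against *BACH1*, and were selected in 10 µg/ml puromycin. SgCont cells, the controls of the knockout experiment, carry the same puromycin selection in their labels. The sources used here do not say whether the knockout cells are 1 clone or a pool, or what the control siRNA and control guide were. *BACH1* encodes a heme-binding repressor that holds down antioxidant genes at DNA sites also used by the activator NRF2.

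p53 is a transcription factor that is kept scarce by the ubiquitin ligase MDM2. DNA damage signalling through the kinases ATM and ATR stabilises it, and it then raises genes that halt the cell cycle, repair DNA, adjust metabolism or start cell death, as well as MDM2 itself, which closes a feedback loop. Many p53 target genes also answer to other factors, such as the integrated stress response factor ATF4, AP-1 and other p53 family members. The comparisons ask which of these genes differed when BACH1 was lowered by either route.

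The libraries held 13099706 to 21478886 counts. Levels are CPM (read counts relative to library size, with TMM factors over the 12 libraries), and fold changes are log2 values ± SE from edgeR's quasi-likelihood test, called at a Benjamini-Hochberg adjusted p below 0.05 over all genes tested. *BACH1* itself stood at 24.7, 27.5 and 24.6 CPM in siBACH1 and 196, 289 and 195 CPM in siCont, and at 219.9, 199 and 186 CPM in sgBACH1 and 270.1, 295 and 279 CPM in sgCont. The siRNA groups lay far apart (-3.15 ± 0.17 on the log2 scale) and the knockout groups less so (-0.48 ± 0.077), without overlap in either (exact two-sided permutation p = 0.1 in each, the smallest that 3 against 3 allows), and a count over the whole gene does not measure a cut in the coding sequence. Ductal and epithelial markers summed to between 11240 and 20619 CPM, with the sgCont libraries highest at 18889 CPM or more, although *KRT7* stayed between 2.38 and 14.9 CPM. Acinar, endocrine, blood and endothelial markers summed to at most 2.05 CPM in any library, with *INS* and *GCG* at 0. The fibroblast list summed to 292 to 356 CPM in the siRNA experiment, 45.5 to 51.4 CPM in sgBACH1 and 114 to 138 CPM in sgCont, nearly all of it *LUM*, while *COL1A1*, *COL1A2* and *DCN* were near 0. The part of these differences in the results was not tested. In bulk RNA, fewer cells that express a gene and less RNA of it per cell cannot be told apart, and since the labels do not state that replicates came from separate cultures, p-values reflect library-to-library spread that may be technical.

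One library stood apart in this gene set and is described first. Between siCont replicate 2 and the other siCont libraries, the chi-square statistic of the counts per degree of freedom was 30.5 and 35.8, against 8.89 between those other libraries. There, *GDF15*, a secreted stress cytokine, stood at 52.1 CPM against 3.57 and 2.92 CPM in siCont replicates 1 and 3, a ratio of 16.1 to their mean. *CDKN1A* stood at 71.9 against 23.8 and 25.2 CPM, and *TNFRSF10B* at 431 against 180.0 and 182 CPM. Of the 31 genes, 11 were over 1.5 times the mean of the other siCont libraries (*GDF15*, *CDKN1A*, *BBC3*, *TNFRSF10B*, *PLK3*, *PMAIP1*, *FAS*, *EPHA2*, *GADD45A*, *TNFRSF10A* and *TIGAR*) and 1, *POLH*, was under 1/1.5 of it. Over all genes tested those shares were 9.48% and 12.6%. Genes of the integrated stress response, which ATF4 drives, were also high in that library. *ASNS*, asparagine synthetase, stood at 1034 CPM against 116 and 106 CPM in the other siCont libraries. *TRIB3*, a pseudokinase, stood at 337 against 33.4 and 30.7 CPM, *DDIT3*, the factor CHOP, at 105 against 17.8 and 19.7 CPM, and *ATF3* at 13.5 against 3.99 and 3.97 CPM. *SESN2*, a target shared by p53 and ATF4, stood at 108 against 11.2 and 9.52 CPM. *MDM2*, at 59.3 against 50.3 and 55.1 CPM, did not follow. The counts of genes called after siRNA are therefore given with and without that library. So are the values of genes of the set whose call changed without it. Other siRNA values are given with all libraries, and without that library only for some genes.

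**Figure D1:**
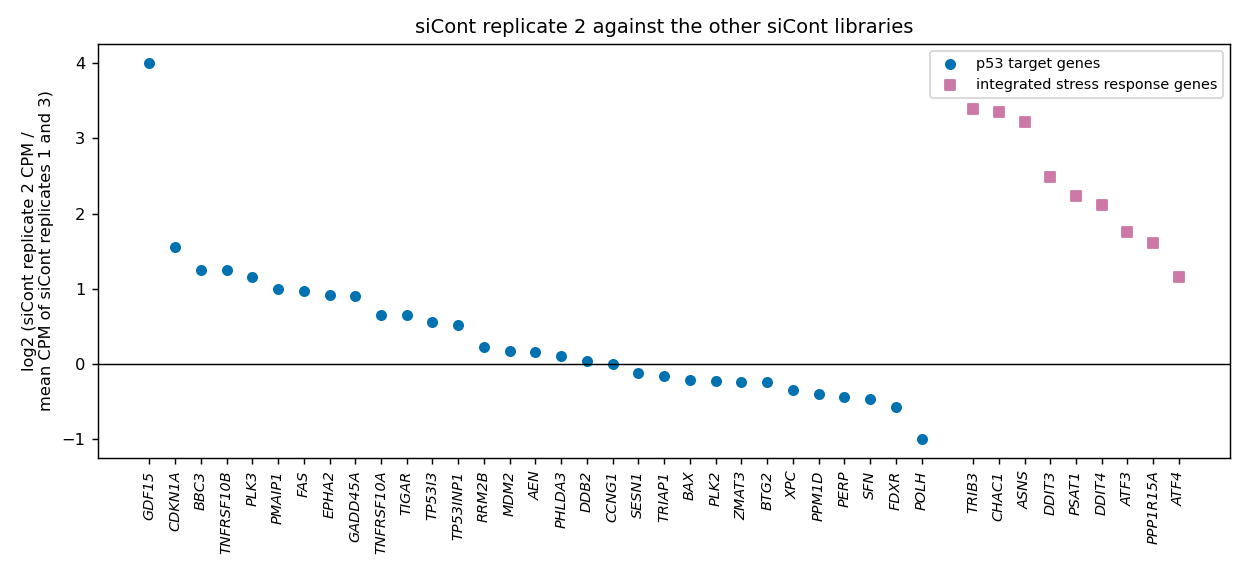
Log2 ratio of the level in siCont replicate 2 to the mean level in siCont replicates 1 and 3, for the 31 p53 target genes (circles) and 9 integrated stress response genes (squares). GDF15 is the highest circle at a 16.1-fold ratio, and all 9 stress response genes lie above 0.

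With all libraries, 9 of the 31 genes were called after siRNA, 3 higher and 6 lower, against 23.9% of all genes tested called (10.9% higher and 13% lower). Their median log2 fold change was -0.21, against 0.0050 over all 14591 genes tested. In the knockout 12 of 31 were called, 10 higher and 2 lower, against a background of 23.5% (11.3% higher and 12.3% lower), with a median of 0.20 against 0.0055 over 14469 genes. All 31 passed the filter on low counts in each comparison. Groups did not overlap for 19 of the 31 genes after siRNA, 5 higher and 14 lower, against 42.6% of all genes, and for 16 in the knockout, 11 higher and 5 lower, against 36.5%. Leaving out siCont replicate 2 gave 15 calls after siRNA, 6 higher and 9 lower, against 33.9% of 15112 genes (16.6% higher and 17.3% lower). The median of the set was then -0.16. As shares of the set, 32.3% were called higher and 6.45% lower in the knockout, and 9.68% higher and 19.4% lower after siRNA.

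Crossed, the calls separated the genes. *BTG2* and *CCNG1* rose in both experiments, *PLK2* and *PERP* fell in both, and *PLK3* and *RRM2B* fell after siRNA and rose in the knockout. *PHLDA3* and *TP53INP1* fell and *TRIAP1* rose after siRNA without a call in the knockout. *BAX*, *BBC3*, *GDF15*, *MDM2*, *PMAIP1* and *PPM1D* rose in the knockout without a call after siRNA, and the other 16 genes were called in neither. Without siCont replicate 2, *GDF15*, *MDM2* and *PMAIP1* joined *BTG2* and *CCNG1* among genes higher in both, and *CDKN1A*, *TNFRSF10B* and *XPC* were newly called lower after siRNA. The test of the difference between the responses, siRNA minus knockout, called 12 of the 31 genes, 2 higher and 10 lower, against 23.6% of 15644 genes (10.6% higher and 13% lower). The experiments share no control libraries.

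**Figure D2:**
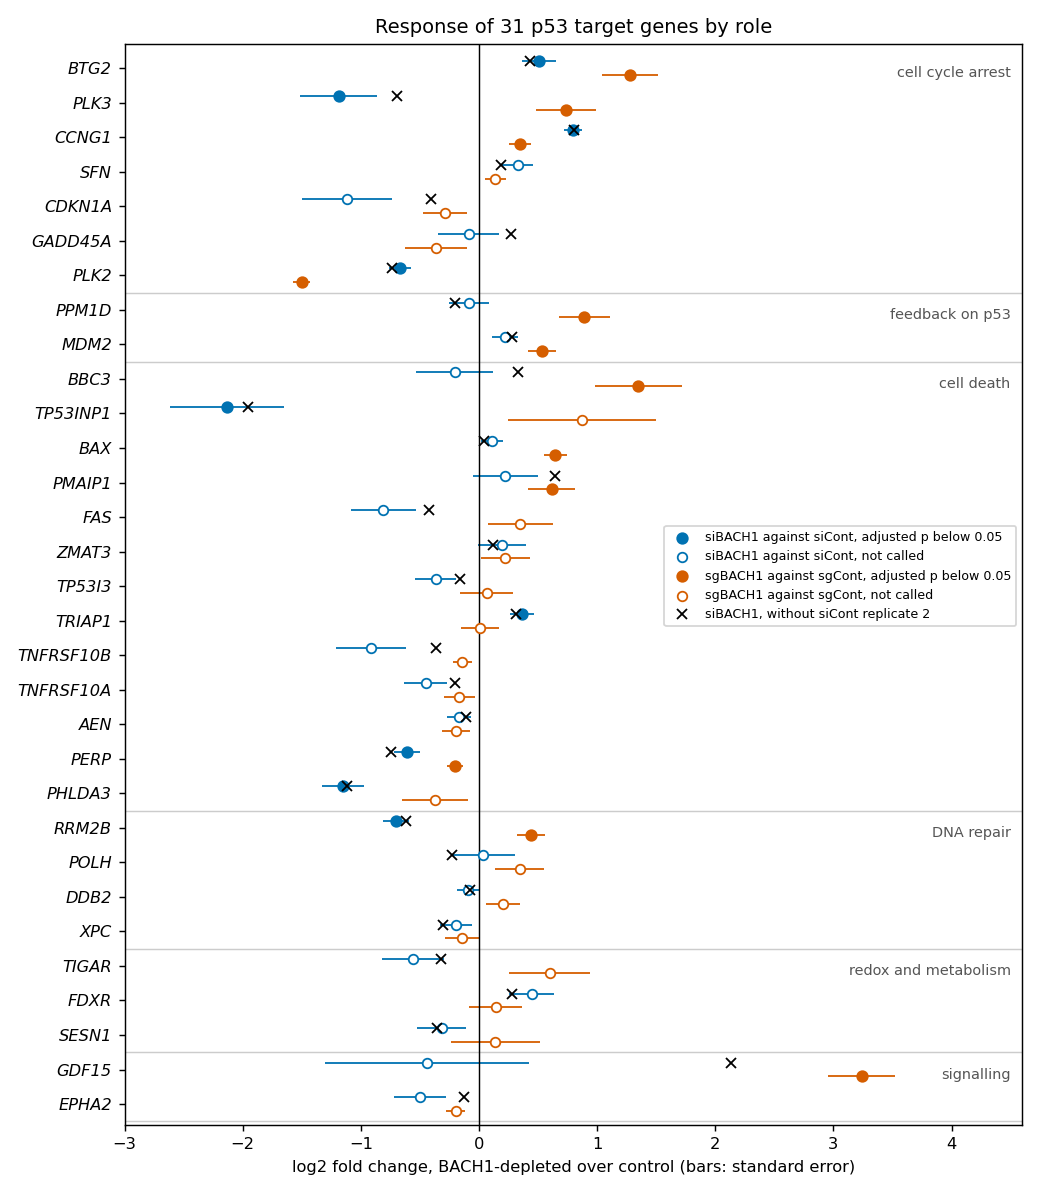
Log2 fold change (x axis, bars are standard errors) of each of the 31 genes, grouped by role, after siRNA (blue) and in the knockout (orange), with filled circles for called genes and crosses for the siRNA value without siCont replicate 2. BTG2 and CCNG1 have filled circles right of 0 in both experiments and PLK2 and PERP left of 0 in both, while the GDF15 cross at 2.13 lies far from its circle at -0.44.

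Per kilobase of exon, *PERP*, a cell membrane protein of desmosomes, was the most abundant of the set in every group, with a mean of 155 to 235 CPM per kb, followed by *SFN*, which encodes the cell cycle scaffold protein stratifin, at 82.0 to 117 CPM per kb. *TP53INP1* was the lowest at 0.0554 to 0.263 CPM per kb. *CDKN1A*, among the best known p53 targets, ranked 9 to 18 of 31 at 4.56 to 13.2 CPM per kb, the upper end being siCont with its divergent replicate. *GDF15* ranked 12 or 13 in 3 groups and 30 in sgCont. The summed level of the 31 genes was 1881 to 1902 CPM in siBACH1 against 2309 to 2617 CPM in siCont, and 2059 to 2080 CPM in sgBACH1 against 2326 to 2393 CPM in sgCont. The largest contribution to the gap between group means came from *PERP* after siRNA and from *PLK2* in the knockout.

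Among genes that restrain the cell cycle, *CCNG1*, which encodes cyclin G1, rose in both experiments. Gene positions are those of GENCODE 29 on GRCh38, and *CCNG1* lies on chromosome 5 from 163437569 to 163446151. It stood at 195, 209 and 206 CPM in siBACH1 and 123, 117 and 109.7 CPM in siCont, so every siBACH1 library was above every siCont library (0.80 ± 0.077, adjusted p = 0.000118). In the knockout it stood at 111, 109 and 98.7 CPM in sgBACH1 and 79.0, 93.3 and 78.2 CPM in sgCont, a smaller rise without overlap (0.35 ± 0.10, adjusted p = 0.00859), which missed the threshold without sgBACH1 replicate 1 or 2 (adjusted p = 0.0604 and 0.0529). The responses differed (0.46 ± 0.12, adjusted p = 0.0117).

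*BTG2*, an antiproliferative cofactor of mRNA decay, lies on chromosome 1 from 203305491 to 203309602 and stood at 15.0, 14.0 and 15.8 CPM in siBACH1 and 10.7, 9.34 and 11.3 CPM in siCont. The groups did not overlap (0.51 ± 0.14, adjusted p = 0.0278). That call was lost without any single siBACH1 replicate or without siCont replicate 1 (adjusted p = 0.0659 to 0.112) and in a fit over all 12 libraries (0.0590), while without siCont replicate 2 it was kept at 0.43 (adjusted p = 0.0267). In the knockout *BTG2* stood at 14.9, 14.5 and 14.0 CPM in sgBACH1 and 7.89, 5.16 and 4.77 CPM in sgCont, higher in every knockout library (1.28 ± 0.24, adjusted p = 0.000253). The difference of the responses was -0.76 ± 0.27, adjusted p = 0.0476, and it missed the threshold on leaving out any library other than siCont replicate 2 or sgCont replicate 1 (adjusted p = 0.0714 to 0.107), under upper quartile scaling (0.0533) and with no filter on low counts (0.108).

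*PLK2* (chromosome 5 from 58453982 to 58460260) and *PLK3* (chromosome 1 from 44800225 to 44805990) encode polo-like kinases that respond to stress and damage. *PLK2* stood at 47.7, 51.2 and 48.3 CPM in siBACH1 and 81.1, 69.8 and 81.7 CPM in siCont, lower in every siBACH1 library (-0.67 ± 0.092, adjusted p = 0.000939). Knockout libraries stood at 152, 141 and 139.9 CPM in sgBACH1 and 397, 420.0 and 406 CPM in sgCont, the largest fall of the set in that experiment (-1.50 ± 0.072, adjusted p = 9.02e-14). The fall was larger in the knockout than after siRNA (difference 0.84 ± 0.11, adjusted p = 3.50e-05). Its control level also differed between the experiments, with means of 77.5 CPM in siCont and 408 CPM in sgCont, and the sgBACH1 mean of 144 CPM lay above both siRNA groups.

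*PLK3* moved the other way in the knockout. It stood at 5.68, 5.44 and 4.44 CPM in siBACH1 and 9.02, 18.8 and 7.71 CPM in siCont, lower without overlap (-1.19 ± 0.32, adjusted p = 0.0268), and the value was -0.70 (adjusted p = 0.0126) without siCont replicate 2, where it stood highest. Leaving out siBACH1 replicate 1, 2 or 3 ended that call (adjusted p = 0.0797, 0.0799 and 0.108). Its level in the knockout experiment was 9.32, 12.3 and 10.1 CPM in sgBACH1 and 5.08, 6.64 and 7.39 CPM in sgCont, higher without overlap (0.74 ± 0.25, adjusted p = 0.0351). That call was lost without any single sgBACH1 replicate or sgCont replicate 1 (adjusted p = 0.0517 to 0.174), in the fit over all 12 libraries (0.0781) and with no filter on low counts (0.0587). The difference of the responses, -1.92 ± 0.41, adjusted p = 0.00223, was called with every library left out in turn. An exon of *PLK3* overlaps *TCTEX1D4* on the other strand, and without strand in the counting their reads cannot be told apart.

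*CDKN1A* encodes p21, the cyclin-dependent kinase inhibitor through which p53 halts the cycle, and lies on chromosome 6 from 36676460 to 36687339. It stood at 21.04, 16.8 and 18.0 CPM in siBACH1 and 23.8, 71.9 and 25.2 CPM in siCont. The siBACH1 libraries were all lower, without a call (-1.12 ± 0.38, adjusted p = 0.0621). Without siCont replicate 2 the value was -0.41 and was called (adjusted p = 0.0141). It was also called without siCont replicate 1 (-1.39, adjusted p = 0.0301) or 3 (-1.38, adjusted p = 0.0290), and with all siRNA libraries in the fit over all 12 libraries (adjusted p = 0.0132) and with no filter on low counts (4.84e-13). With no filter its difference from the knockout was called as well (-0.82, adjusted p = 0.00727). The siRNA p-value with no filter is too small to reflect the spread of the siCont libraries, where replicate 2 stood far above the others. The knockout experiment gave 14.6, 12.6 and 14.5 CPM in sgBACH1 and 17.1, 14.3 and 19.6 CPM in sgCont, overlapping and not called (-0.29 ± 0.19, adjusted p = 0.309). Neither *GADD45A*, a damage sensor protein, nor *SFN* was called in either experiment, with log2 fold changes of -0.088 and -0.37 for *GADD45A* and 0.33 and 0.14 for *SFN*, after siRNA and in the knockout (*SFN* was called there at 0.24 without sgCont replicate 3, adjusted p = 0.0423, and after siRNA with no filter on low counts, adjusted p = 0.0158). *CDKN1A* overlaps the antisense gene *DINOL*.

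Both genes that feed back on p53 rose in the knockout. *MDM2* (chromosome 12 from 68808176 to 68850686) stood at 61.2, 52.3 and 60.7 CPM in sgBACH1 and 43.4, 41.5 and 35.7 CPM in sgCont, higher in every knockout library (0.53 ± 0.12, adjusted p = 0.00165), and this call was kept with each library left out in turn. After siRNA it stood at 57.0, 62.5 and 72.8 CPM in siBACH1 and 50.3, 59.3 and 55.1 CPM in siCont, with overlap and no call (0.22 ± 0.11, adjusted p = 0.197), and without siCont replicate 2 it was called at 0.28 (adjusted p = 0.0258). *PPM1D*, a phosphatase that reverses damage signalling, lies on chromosome 17 from 60600183 to 60666280 and stood at 14.2, 15.4 and 15.8 CPM in sgBACH1 and 8.70, 6.22 and 9.53 CPM in sgCont, again without overlap (0.89 ± 0.22, adjusted p = 0.00346). After siRNA it stood at 10.9, 12.3 and 11.3 CPM in siBACH1 and 14.9, 10.0 and 11.6 CPM in siCont and was not called (-0.086 ± 0.17, adjusted p = 0.756). The difference of the responses of *PPM1D* was -0.97 ± 0.27, adjusted p = 0.0141, and it missed the threshold without siCont replicate 1 (adjusted p = 0.0522). *MDM2* overlaps the carboxypeptidase M gene on the other strand.

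The internal promoter of *MDM2* is shown because it carries, close together, letters that match a p53 site and letters that match the site shared by BACH1 and NRF2. In the RefSeq windows of GRCh38.p14, from 250 bases before to 50 bases after each start, the stretch chr12:68808889-68808952 on the plus strand, 5′ to 3′, holds both matches in capitals, with 15 bases between them.
MDM2: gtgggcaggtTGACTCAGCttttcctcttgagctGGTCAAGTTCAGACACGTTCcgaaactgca
The first run of capitals matches TGACNNNGC, the site of BACH1 and NRF2, and its letters also match the AP-1 site TGANTCA. The second run is the p53 match, made of 2 half-sites of 10 bases with 2 mismatches to the p53 consensus. Matches in 3 other genes, *DDB2* (0 mismatches, 1 base between its half-sites), *FAS* and *AEN* (2 mismatches each), are shown with their half-sites in capitals, at chr11:47214969-47215009, chr10:88991299-88991338 and chr15:88621296-88621335 on the plus strand, for comparison with *MDM2*.
DDB2: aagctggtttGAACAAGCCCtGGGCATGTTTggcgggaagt
FAS: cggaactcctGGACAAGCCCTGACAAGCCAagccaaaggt
AEN: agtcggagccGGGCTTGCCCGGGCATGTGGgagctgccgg

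Windows matched 25 of the 31 genes by symbol, in 36 windows. Searched on both strands, a p53 match with up to 13 bases between half-sites and up to 2 mismatches outside the core lay in windows of 5 genes (*AEN*, *DDB2*, *FAS*, *FDXR* and *MDM2*), 16.7% of the windows against 2.93% of all 35116. Of those 5, only *MDM2* was called in either experiment by edgeR's quasi-likelihood test with all libraries, and *FAS* was called after siRNA in the other fits named with its levels. TGACNNNGC lay in windows of *BAX*, *FAS*, *MDM2*, *POLH*, *SESN1*, *TP53I3* and *XPC*, 25.0% of the windows against 13.3% of all. Of these, *BAX* and *MDM2* rose in the knockout, *XPC* was called lower after siRNA only without siCont replicate 2, and *FAS*, *POLH*, *SESN1* and *TP53I3* were called in neither experiment by that test. The AP-1 site TGANTCA, whose matches overlap those of TGACNNNGC in *MDM2*, lay in windows of *BBC3*, *FAS*, *MDM2*, *PERP* and *SFN* (16.7% against 7.71%). The ATF4 site TGATGNAA lay in that of *PLK3* (2.78% against 3.62%). A match is a run of letters in the window, and binding was not measured here.

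**Figure D3:**
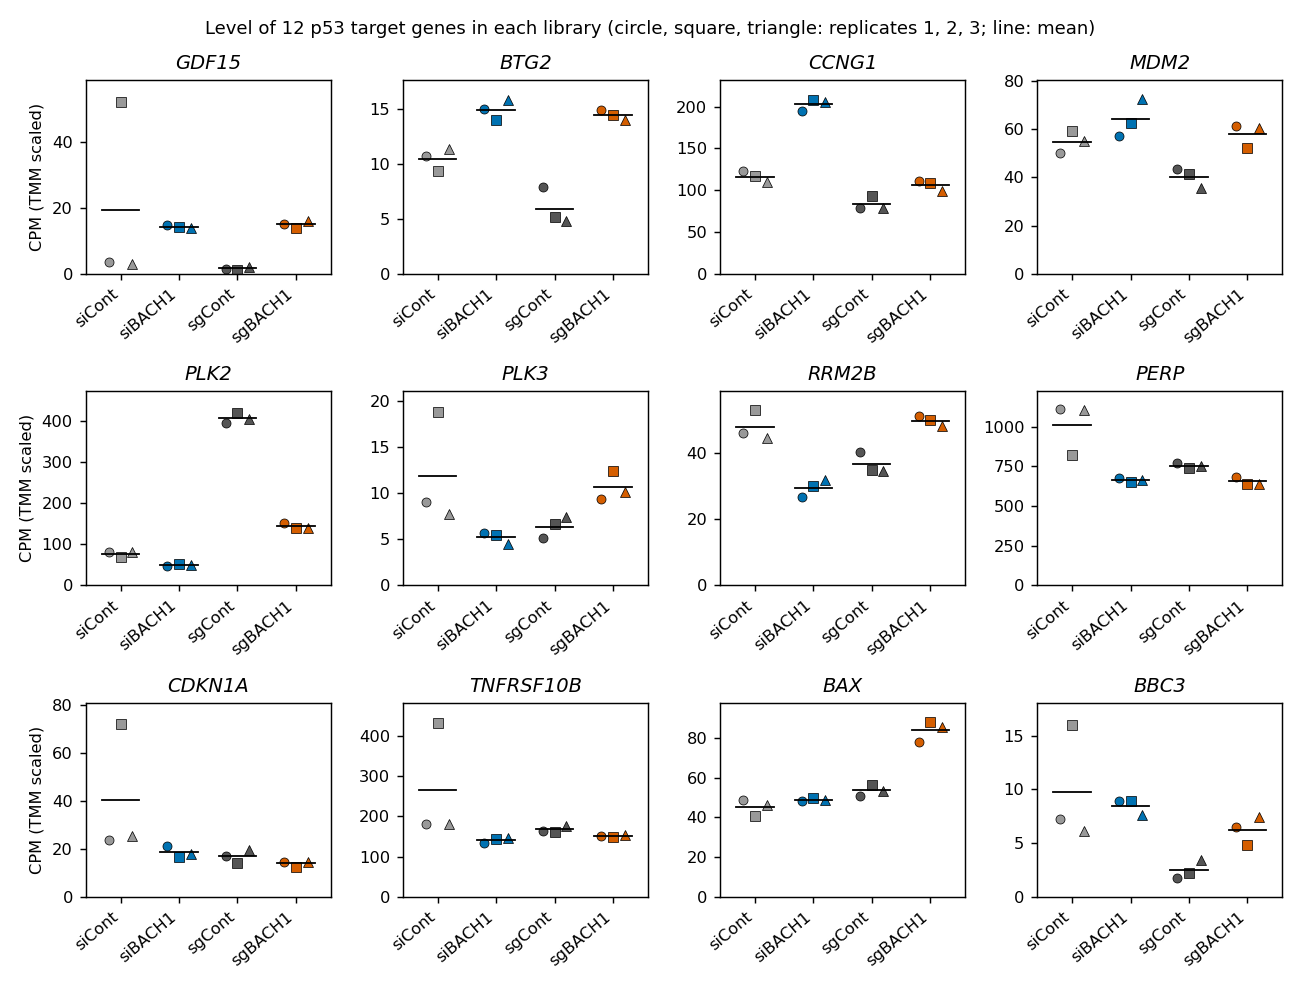
Level in CPM (y axis, linear from 0) of 12 of the genes in each of the 12 libraries, with circles, squares and triangles for replicates 1, 2 and 3 and a line for the group mean. SiCont replicate 2 lies far above its group for GDF15, CDKN1A, TNFRSF10B, PLK3 and BBC3, while BTG2 and CCNG1 lie higher in all BACH1-depleted libraries than in their controls.

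Among genes of cell death, 3 inner pathway genes rose in the knockout. *BAX*, which permeabilises mitochondria, lies on chromosome 19 from 48954815 to 48961798 and stood at 77.9, 88.1 and 85.5 CPM in sgBACH1 and 51.0, 56.5 and 53.4 CPM in sgCont, higher in every knockout library (0.65 ± 0.10, adjusted p = 2.62e-05). After siRNA it stood at 48.3, 49.6 and 49.0 CPM in siBACH1 and 48.6, 40.8 and 46.0 CPM in siCont, which overlapped (0.11 ± 0.093, adjusted p = 0.432), and the responses differed (-0.53 ± 0.13, adjusted p = 0.00838). *BBC3*, which encodes the BH3-only protein PUMA that activates BAX, lies on chromosome 19 from 47220822 to 47232766 and stood at 6.52, 4.82 and 7.42 CPM in sgBACH1 and 1.73, 2.26 and 3.40 CPM in sgCont, without overlap (1.35 ± 0.37, adjusted p = 0.00863). Without sgBACH1 replicate 3 it missed the threshold (adjusted p = 0.0650). After siRNA *BBC3* stood at 8.89, 8.88 and 7.64 CPM in siBACH1 and 7.27, 16.0 and 6.13 CPM in siCont, with the divergent siCont replicate above and the other siCont libraries below siBACH1 (-0.21 ± 0.33, adjusted p = 0.690, and 0.33 with adjusted p = 0.205 without it). Between the experiments the difference was -1.55 ± 0.47, adjusted p = 0.0245, and became -1.01 (adjusted p = 0.0668) without siCont replicate 2, and it was also not called without siBACH1 replicate 3, sgBACH1 replicate 1 or 3, or sgCont replicate 1 (adjusted p = 0.0510 to 0.0663).

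*PMAIP1*, which encodes the BH3-only protein NOXA, stood at 21.4, 23.7 and 20.7 CPM in sgBACH1 and 19.4, 12.4 and 11.1 CPM in sgCont. The groups did not overlap (0.61 ± 0.20, adjusted p = 0.0249), but the call was kept only without sgCont replicate 1 among the 6 libraries left out in turn, with adjusted p of 0.0591 to 0.126 otherwise and 0.103 in the fit over all 12 libraries. After siRNA it stood at 21.3, 22.4 and 29.7 CPM in siBACH1 and 17.6, 31.6 and 14.0 CPM in siCont. SiCont replicate 2 was the highest of those 6 libraries (0.22 ± 0.27, adjusted p = 0.605), and without it *PMAIP1* was called higher at 0.64 (adjusted p = 0.00185).

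The cell surface death receptor genes of the set were not called in either experiment by edgeR's quasi-likelihood test with all libraries. Other fits called some of them lower after siRNA. *FAS* stood at 7.50, 7.63 and 6.22 CPM in siBACH1 and 10.00, 18.5 and 8.94 CPM in siCont, lower without overlap but not called (-0.81 ± 0.27, adjusted p = 0.0599, and -0.42 with adjusted p = 0.0905 without siCont replicate 2). Without siCont replicate 3 it was called (-1.01, adjusted p = 0.0277), as it was with the replicate block (adjusted p = 0.0374), DESeq2 (0.0174), the fit over all 12 libraries (0.0420) and no filter on low counts (0.00137). In sgBACH1 against sgCont the levels were 7.74, 10.2 and 7.08 CPM in sgBACH1 and 8.48, 5.44 and 5.66 CPM in sgCont and overlapped (0.35 ± 0.28, adjusted p = 0.417). The difference of the responses was called with all libraries (-1.15 ± 0.39, adjusted p = 0.0390) and not without siCont replicate 2 (-0.76, adjusted p = 0.112), nor without any of the siBACH1 libraries, sgBACH1 replicate 1 or 2, or sgCont replicate 2 or 3 (adjusted p = 0.0581 to 0.108), nor with limma-voom (0.0611). *TNFRSF10B*, a receptor of the death ligand TRAIL, had a log2 fold change of -0.91 ± 0.30, adjusted p = 0.0525 after siRNA. Without siCont replicate 2 that value was -0.36, smaller and called (adjusted p = 3.87e-05). Without siCont replicate 1 or 3 it was also called (-1.14 and -1.13, adjusted p = 0.0278 and 0.0228), as was its difference from the knockout (-0.96 and -0.98, adjusted p = 0.0213 and 0.0195). With all libraries, the replicate block (adjusted p = 0.0340), the fit over all 12 libraries (0.00713) and no filter (1.21e-17) also called the siRNA value, and no filter the difference (-0.76, adjusted p = 8.69e-07). The siCont libraries stood at 180.0, 431 and 182 CPM, and the p-values with no filter are too small to reflect that spread. In the knockout *TNFRSF10B* was at -0.14 ± 0.077, adjusted p = 0.210. The other TRAIL receptor gene of the set, *TNFRSF10A*, was not called in either (-0.45 and -0.17). It was called after siRNA without siCont replicate 1 (-0.60, adjusted p = 0.0463) or with no filter (-0.44, adjusted p = 0.0187). *FAS* overlaps *ACTA2*, and *TNFRSF10B* overlaps *RHOBTB2*, each on the other strand.

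*PERP* (chromosome 6 from 138088505 to 138107511) fell in both experiments. It stood at 676, 653 and 663 CPM in siBACH1 and 1108, 818 and 1102 CPM in siCont, lower in every siBACH1 library (-0.61 ± 0.11, adjusted p = 0.00389, and -0.74 without siCont replicate 2). Levels in the knockout experiment were 684, 640.3 and 638 CPM in sgBACH1 and 772, 739.8 and 750.3 CPM in sgCont, a small fall without overlap (-0.20 ± 0.064, adjusted p = 0.0222). This second call was lost without sgBACH1 replicate 2 or 3 or sgCont replicate 1 (adjusted p = 0.0786 to 0.122) and in the fit over all 12 libraries (0.127). The difference was -0.40 ± 0.13, adjusted p = 0.0329, and of the 12 libraries left out in turn it was called only without siCont replicate 2 or sgCont replicate 1, with adjusted p of 0.0546 to 0.0982 otherwise.

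*PHLDA3*, whose protein competes with the kinase AKT for membrane lipids, lies on chromosome 1 from 201464383 to 201469237 and stood at 4.84, 4.09 and 3.89 CPM in siBACH1 and 9.30, 9.97 and 9.11 CPM in siCont, so the siBACH1 level was below the lowest siCont library in all replicates (-1.15 ± 0.18, adjusted p = 0.00177, and -1.12 without siCont replicate 2). In the knockout it stood at 5.60, 5.14 and 6.35 CPM in sgBACH1 and 7.89, 8.41 and 5.90 CPM in sgCont and was not called (-0.37 ± 0.28, adjusted p = 0.392). *TP53INP1*, a nuclear stress protein, was scarce, at 0.423, 0.200 and 0.320 CPM in siBACH1 and 0.839, 1.73 and 1.58 CPM in siCont. These rest on 4 to 7 counts per siBACH1 library and 12 to 27 per siCont library, without overlap (-2.13 ± 0.48, adjusted p = 0.0118). Its call was lost without siBACH1 replicate 2 or 3 (adjusted p = 0.0615 and 0.0543). In the knockout *TP53INP1* stood at 0.975, 1.75 and 1.75 CPM in sgBACH1 and 0.919, 0.989 and 0.536 CPM in sgCont and overlapped (0.87 ± 0.62, adjusted p = 0.360), and the responses differed (-3.0 ± 0.77, adjusted p = 0.00904). *PHLDA3* overlaps another annotated gene on its own strand.

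*TRIAP1*, which encodes a small mitochondrial survival protein, was called higher after siRNA (0.36 ± 0.10, adjusted p = 0.0272), with means of 38.9 CPM in siBACH1 and 30.1 CPM in siCont. That call was lost without any single siBACH1 replicate or siCont replicate 3 (adjusted p = 0.0638 to 0.113) and in the fit over all 12 libraries (0.0821). In the knockout *TRIAP1* was at 0.0057, and the responses differed only without sgBACH1 replicate 2 (0.57, adjusted p = 0.0375). *AEN*, a nuclease, *TP53I3*, a quinone oxidoreductase, and *ZMAT3*, an RNA-binding protein, were called in neither experiment, with log2 fold changes between -0.37 (*TP53I3* after siRNA) and 0.22 (*ZMAT3* in the knockout).

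Of the DNA repair genes, *RRM2B* moved in opposite directions. It encodes the p53-inducible subunit of ribonucleotide reductase, which supplies deoxynucleotides, and lies on chromosome 8 from 102204502 to 102239118. It stood at 26.8, 30.1 and 31.8 CPM in siBACH1 and 46.1, 53.1 and 44.6 CPM in siCont, lower in every siBACH1 library (-0.70 ± 0.11, adjusted p = 0.00203, and -0.62 without siCont replicate 2). Knockout libraries stood at 51.2, 50.1 and 48.4 CPM in sgBACH1 and 40.5, 35.0 and 34.6 CPM in sgCont, higher in every knockout library (0.44 ± 0.12, adjusted p = 0.00758), and the difference was -1.14 ± 0.16, adjusted p = 4.78e-05. These 3 calls were kept with each library left out in turn. *DDB2* and *XPC*, which recognise damaged DNA, and *POLH*, a translesion polymerase, were called in neither experiment. Their log2 fold changes were -0.091, -0.20 and 0.035 after siRNA and 0.20, -0.14 and 0.34 in the knockout, in that order, and *XPC* was called at -0.30 (adjusted p = 0.0464) without siCont replicate 2.

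The 3 metabolic genes were not called in either experiment. *TIGAR*, which lowers glycolytic flux, was at -0.56 after siRNA and 0.60 in the knockout, *FDXR*, an electron donor of mitochondria, at 0.45 and 0.14, and *SESN1*, an inhibitor of growth signalling, at -0.32 and 0.14. The ephrin receptor gene *EPHA2* was not called either (-0.50 and -0.20). Without sgCont replicate 3 *TIGAR* was called in the knockout (1.10, adjusted p = 0.0344) and in the difference (-1.65, adjusted p = 0.0125), and without sgCont replicate 2 *EPHA2* was called in the knockout (-0.24, adjusted p = 0.0392). The replicate block also called *EPHA2* lower in the knockout (-0.20, adjusted p = 0.0358), and no filter on low counts called it lower after siRNA (-0.48, adjusted p = 9.69e-06). Exons of *BBC3*, *POLH*, *SESN1*, *TIGAR*, *TNFRSF10A*, *TP53I3* and *XPC* also overlap those of another annotated gene.

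*GDF15* (chromosome 19 from 18374731 to 18389176) was the gene whose siRNA result turned on 1 library. It stood at 14.7, 14.2 and 13.9 CPM in siBACH1 and 3.57, 52.1 and 2.92 CPM in siCont. The siBACH1 libraries were close to each other, far above siCont replicates 1 and 3 and far below siCont replicate 2, and the fit gave no call (-0.44 ± 0.86, adjusted p = 0.751). Without siCont replicate 2 the sign turned and *GDF15* was called higher at 2.13 (adjusted p = 7.21e-09). Its level in the knockout experiment was 15.1, 14.0 and 16.1 CPM in sgBACH1 and 1.46, 1.27 and 2.03 CPM in sgCont, the largest rise of the set (3.24 ± 0.28, adjusted p = 3.80e-09). Between the experiments the difference was -3.67 ± 1.04, adjusted p = 0.0159, and -1.10 (adjusted p = 0.0143) without siCont replicate 2, a smaller difference. With the replicate block (adjusted p = 0.0579) and with limma-voom (0.150) it was not called.

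*MDM4*, which encodes an inhibitor of p53 related to MDM2, stood at 21.1, 25.0 and 26.9 CPM in siBACH1 and 19.8, 35.7 and 20.7 CPM in siCont and at 32.6, 25.8 and 35.7 CPM in sgBACH1 and 33.9, 42.2 and 30.4 CPM in sgCont, and was not called in either (-0.060 and -0.17). Of 20 regulators of p53, 2 were called higher and 1 lower after siRNA, and 1 higher and 3 lower in the knockout, with medians of 0.042 and -0.048. These were 15% and 20% of the list, against 23.9% and 23.5% of all genes tested. *CREBBP*, an acetyltransferase that coactivates p53, rose after siRNA (0.35 ± 0.083, adjusted p = 0.0152) and fell in the knockout (-0.59 ± 0.085, adjusted p = 1.06e-05), the rise being lost without any single siBACH1 library or siCont replicate 1 (adjusted p = 0.0536 to 0.0854). *TP73*, a p53 family member, rose in the knockout (2.64 ± 0.62, adjusted p = 0.00262, and 3.97 without sgCont replicate 3) and was at -0.57 after siRNA. The rise rests on 66, 90 and 87 counts in sgBACH1 and only 1, 8 and 27 in sgCont, so its size is uncertain. *TP73* also overlaps *TP73-AS1* on the other strand. The kinase gene *ATR* fell after siRNA (-0.46 ± 0.14, adjusted p = 0.0348), a call lost without siBACH1 replicate 1 or 2 or siCont replicate 1 or 3 (adjusted p = 0.0879 to 0.147). *TP53BP2*, whose protein binds p53, was called higher after siRNA (0.29 ± 0.084, adjusted p = 0.0361), a call lost without any single siBACH1 library or siCont replicate 1 or 3, with no filter on low counts, with the replicate block or in the fit over all 12 libraries (adjusted p = 0.0555 to 0.154).

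Other p53 target genes outside the set moved in both directions. Of 30 tested after siRNA, 8 were called higher and 5 lower, and of 31 tested in the knockout, 6 higher and 4 lower, with medians of 0.0089 and 0.095. These were 43.3% and 32.3% of those tested, against 23.9% and 23.5% of all genes tested. *KITLG*, which encodes the ligand of the receptor KIT, fell in both (-1.58 ± 0.11, adjusted p = 2.00e-05 and -0.90 ± 0.082, adjusted p = 8.31e-09), and *TP53I11* rose in both (1.29 ± 0.13, adjusted p = 0.000177 and 0.96 ± 0.12, adjusted p = 1.67e-06). *RAP2B*, a small GTPase gene, rose after siRNA (1.38 ± 0.11, adjusted p = 3.55e-05) and fell in the knockout (-0.43 ± 0.11, adjusted p = 0.00667). *DRAM1*, an autophagy gene, fell in the knockout (-1.77 ± 0.53, adjusted p = 0.0166), a call lost without sgBACH1 replicate 1 or 2 or sgCont replicate 1 or 3 (adjusted p = 0.0524 to 0.0991).

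Of 15 cell cycle genes that p21 action lowers, 3 were called higher and 3 lower after siRNA, and none higher and 1 lower in the knockout, with medians of 0.037 and -0.070. These were 40% and 6.67% of the list, against 23.9% and 23.5% of all genes tested. *AURKB*, a mitotic kinase gene, and *MKI67*, the proliferation marker, rose after siRNA (0.50 ± 0.11, adjusted p = 0.0122 and 0.43 ± 0.082, adjusted p = 0.00484), and the *AURKB* call was lost without siBACH1 replicate 2 or siCont replicate 1 (adjusted p = 0.0513 to 0.0631). The mitotic kinase gene *PLK1* fell in both (-0.42 ± 0.084, adjusted p = 0.00651 and -0.64 ± 0.073, adjusted p = 2.84e-07), and the mitotic cyclin gene *CCNB1* fell after siRNA (-0.49 ± 0.089, adjusted p = 0.00396).

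Of 17 genes of damage sensing and repair, 1 was called higher and 1 lower after siRNA, and 2 higher and 2 lower in the knockout, with medians of -0.0048 and -0.0066. These were 11.8% and 23.5% of the list, against 23.9% and 23.5% of all genes tested. *RNF168*, a ubiquitin ligase gene, rose after siRNA (0.38 ± 0.091, adjusted p = 0.0158) and fell in the knockout (-0.63 ± 0.12, adjusted p = 0.000236), the rise being lost without any single siBACH1 library or siCont replicate 3 (adjusted p = 0.0565 to 0.0730). *XRCC5*, which encodes the DNA end-binding protein Ku80, fell after siRNA (-0.42 ± 0.064, adjusted p = 0.00170). *BRCA1*, a recombination repair gene, rose in the knockout (0.36 ± 0.10, adjusted p = 0.00946), a call lost without sgBACH1 replicate 1 (adjusted p = 0.0882). *PCNA*, the sliding clamp gene of DNA replication and repair, also rose there (0.28 ± 0.076, adjusted p = 0.00683), a call lost in the fit over all 12 libraries (adjusted p = 0.0995). Without siCont replicate 2 the siRNA counts were 5 higher and 3 lower for the regulators, 9 and 5 for the other targets, 5 and 4 for the cell cycle genes and 2 and 3 for the repair genes. Calls over all genes tested also grew, to 16.6% higher and 17.3% lower, against 10.9% and 13% with all libraries.

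Of 9 integrated stress response genes, none was called higher and 2 lower after siRNA, with a median of -1.99, and without siCont replicate 2 there were 2 higher and 2 lower with a median of -0.028. Over all genes tested, 23.9% were called with all libraries and 33.9% without that library. The lower genes in both cases were *PSAT1* at -2.49 and *DDIT4* at -1.99, which became -1.32 and -0.92 without that library. The *PSAT1* call was lost without siBACH1 replicate 1 or 3 (adjusted p = 0.0568 to 0.0664) and the *DDIT4* call without any single siBACH1 library (adjusted p = 0.0811 to 0.0855). The higher genes were *ATF4* (0.27, adjusted p = 0.00203) and *PPP1R15A*, which encodes a phosphatase subunit (0.99, adjusted p = 1.23e-07). *ASNS* and *TRIB3*, at -2.07 and -2.13 after siRNA with all libraries, were not called (adjusted p = 0.0800 and 0.0871), and neither were *DDIT3* and *ATF3* (-1.14 and -0.57). In the knockout 4 of the 9 were called higher and none lower, with a median of 0.47. That was 44.4% of the list, against 23.5% of all genes tested. *ASNS* stood at 61.0, 63.6 and 63.3 CPM in sgBACH1 and 46.8, 36.2 and 46.5 CPM in sgCont (0.54 ± 0.12, adjusted p = 0.00122), *TRIB3* was at 0.47, *PPP1R15A* at 0.54 and *ATF3* at 1.69. The *ASNS* call was lost in the fit over all 12 libraries (adjusted p = 0.575), which pools the spread of all groups, the *TRIB3* call without sgBACH1 replicate 1 or 2 or in the fit over all 12 libraries (adjusted p = 0.0556 to 0.642), and the *PPP1R15A* call without sgBACH1 replicate 1 or in the fit over all 12 libraries (adjusted p = 0.0582 to 0.219). The *ATF3* call was lost without sgBACH1 replicate 1 or 2 or any single sgCont library, with no filter on low counts, with limma-voom or with the replicate block (adjusted p = 0.0542 to 0.196).

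Neighbouring genes on the chromosome shifted together around some of the set in the knockout. For each gene, the median log2 fold change of the 50 tested genes on either side was taken, fewer near a chromosome end. After siRNA that median lay between -0.17 and 0.14. In the knockout it lay between -0.36 and 0.39, and beyond 0.3 in size for 3 genes. Those were *BBC3* (0.39) and *BAX* (0.38), whose neighbourhoods on chromosome 19 overlap and each had 38 of 100 genes called higher and 1 lower, and *ZMAT3* (-0.36) on chromosome 3, with 2 called higher and 40 lower. Relative to the neighbours, *BBC3* was higher by 0.96, *BAX* by 0.27 and *ZMAT3* by 0.58. *BBC3* and *BAX* thus had the sign of their neighbours, while *ZMAT3*, at 0.22 itself, had the opposite sign. The next in size were *TRIAP1* on chromosome 12, with a neighbour median of -0.27, 5 neighbours called higher and 36 lower and a value 0.28 above the neighbours, and *MDM2*, with a neighbour median of -0.19 and a value 0.72 above them. *GDF15*, also on chromosome 19 but far from *BAX*, had a neighbour median of -0.075. The part of these blocks in the results was not tested.

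**Figure D4:**
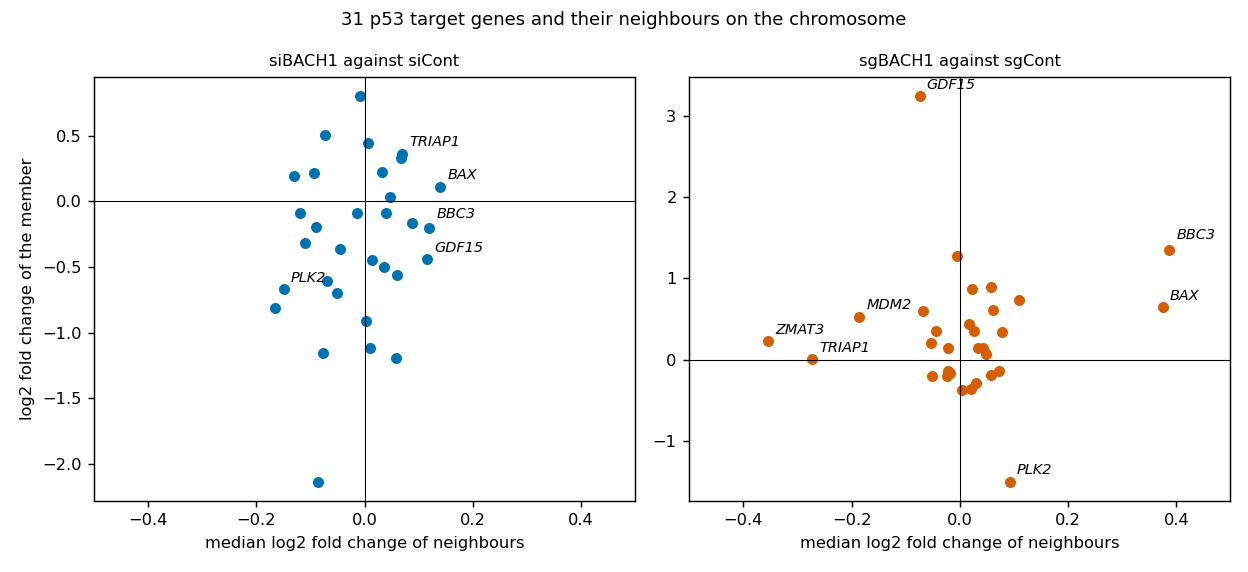
Log2 fold change of each of the 31 genes (y axis) against the median log2 fold change of its neighbours on the chromosome (x axis), after siRNA on the left and in the knockout on the right, with different y scales. BBC3 and BAX stand at the right of the knockout panel near 0.38 and ZMAT3 at the left at -0.36, while all neighbour medians after siRNA lie between -0.17 and 0.14.

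The letters AACATTA or ACATTAA in a 3′ UTR of the GENCODE 29 annotation were counted, because earlier results of these data found them in many genes that fell in siBACH1. Over all genes tested they were found in 54.5% of those called lower after siRNA, 20.5% of those not called and 13.1% of those called higher. These shares come from the data that gave the letters and are not separate support. In the set, 2 of the 6 genes called lower held such a match (*PERP* and *TP53INP1*), as did 6 of the 22 not called (*FAS*, *GADD45A*, *MDM2*, *PMAIP1*, *PPM1D* and *ZMAT3*) and none of the 3 called higher. The other 4 lower genes, *PHLDA3*, *PLK2*, *PLK3* and *RRM2B*, held none. The *PERP* match, on the minus strand at chr6:138090546-138090552 (GRCh38), is shown with 10 bases on each side and the matching letters in capitals, as the abundant member that fell in both experiments.
PERP: ccctagacacACATTAAacaatttctc
The median 3′ UTR length was 1970 bases in all lower genes, 1210 in genes not called and 1525.5 in higher genes. The part of length was not tested.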

How the data were processed

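The sample titles place the 12 AsPC-1 libraries in groups of 3 (siBACH1, siCont, sgBACH1 and sgCont). Total RNA was depleted of rRNA and sequenced on an Ion Proton, per the labels' protocols. The values deposited by the authors are raw read counts per gene, 1 table per experiment, made with HTSeq 0.9.1 and SAMtools on hg19, per the submitters' processing notes. No source used here gives the aligner, the counting mode or the use of strand, so counts of genes that share exons with another gene are uncertain. Gene positions, exon lengths and 3′ UTRs come from GENCODE 29 on GRCh38 by gene identifier, and no hg19 coordinate was used.

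Counts were scaled with TMM, filtered with filterByExpr (minimum count 10) and tested two-sided with edgeR 4.0.16 in R 4.3.3 by the quasi-likelihood test, each experiment alone, with p-values adjusted after Benjamini-Hochberg over every gene tested and calls at an adjusted p below 0.05. The difference of the responses was fitted over all 12 libraries with 4 group means. The SE is the size of the log2 value over the square root of its F statistic. Alternatives were other scalings, no filter or a minimum count of 30, DESeq2 1.42.0, limma-voom (limma 3.58.1), a replicate block, a fit on all 12 libraries and leaving out each library. The steps were tested on simulated data with 200 changed genes. In the data 3481 genes were called after siRNA, 3407 in the knockout and 3687 for the difference, so the simulated rates need not hold there. Changes of 2 fold were recovered in 65.7% of such genes for the siRNA comparison (14591 genes), 70.1% for the knockout (14469 genes) and 47.8% for the difference (15644 genes), and changes of 1.5 fold in 22.4%, 38.8% and 16.4%, with 6.35%, 5.15% and 6.12% of calls false.

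The members, the other gene lists and the tests were chosen with earlier results of these data known. All 31 members may be named. Library values are given for *CDKN1A* and *MDM2*, for members called in either experiment with a log2 fold change of at least 0.5 in size and for members called in the difference, and other lists give up to the 4 called responses of largest size and the 4 largest called differences each. One gene each of the regulator and repair lists is not reported here and was left out of the counts of its list. Promoter windows are from RefSeq (GRCh38.p14), and 6 members had none in the table used. Intervals and p-values cover the spread between libraries, except p-values with no filter on low counts. Depth of 13099706 to 21478886 counts per library limits scarce genes such as *TP53INP1*.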

Additional observations from a re-analysis of the deposited data

Results flagged for a closer look

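The results below were picked out because the response to siRNA and the response to knockout differed in a fit over all 12 libraries (edgeR's quasi-likelihood test, log2 siRNA response minus log2 knockout response, adjusted over all genes tested). Of the 31 p53 target genes, 12 did so, 2 higher and 10 lower, against 23.6% of all genes tested. Opposite calls in the 2 experiments lie behind *RRM2B* (-1.14 ± 0.16, adjusted p = 4.78e-05) and *PLK3* (-1.92 ± 0.41, adjusted p = 0.00223). Calls in the same direction but of different size lie behind *PLK2* (0.84 ± 0.11, adjusted p = 3.50e-05), *CCNG1* (0.46 ± 0.12, adjusted p = 0.0117), *BTG2* (-0.76 ± 0.27, adjusted p = 0.0476) and *PERP* (-0.40 ± 0.13, adjusted p = 0.0329). A rise called only in the knockout lies behind *GDF15* (-3.67 ± 1.04, adjusted p = 0.0159), *BBC3* (-1.55 ± 0.47, adjusted p = 0.0245), *BAX* (-0.53 ± 0.13, adjusted p = 0.00838) and *PPM1D* (-0.97 ± 0.27, adjusted p = 0.0141), and a fall called only after siRNA behind *TP53INP1* (-3.0 ± 0.77, adjusted p = 0.00904). *FAS* (-1.15 ± 0.39, adjusted p = 0.0390) was called in neither experiment alone by that test. Without siCont replicate 2, *GDF15* was called higher in both experiments, with a smaller difference that was still called. The *BBC3* and *FAS* differences were then not called. Limma-voom called neither the *GDF15* nor the *FAS* difference, and the replicate block did not call that of *GDF15*.

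For the other lists, the values are those of the 4 largest called differences and of genes named in the report. Over all genes tested, 10.6% were called higher and 13% lower, 23.6% together. The shares called were 25% of the regulators, 35.5% of the other targets, 26.7% of the cell cycle genes, 29.4% of the repair genes and 55.6% of the stress response genes. Of 20 regulators of p53, 3 were called higher and 2 lower, among them *CREBBP* (0.94 ± 0.12, adjusted p = 2.78e-05), *ATM* (0.46 ± 0.14, adjusted p = 0.0208), *TP73* (-3.20 ± 0.83, adjusted p = 0.00911) and *ATR* (-0.57 ± 0.18, adjusted p = 0.0311). The size of the *TP73* value is uncertain, since sgCont held only 1, 8 and 27 counts of it. The *ATM* call was lost without siBACH1 replicate 3, sgBACH1 replicate 2 or sgCont replicate 2 (adjusted p = 0.0512 to 0.0666) and the *ATR* call without siBACH1 replicate 1 or 2, siCont replicate 1 or 3, sgBACH1 replicate 1 or 3 or sgCont replicate 1 or 3 (adjusted p = 0.0672 to 0.0925). Of 31 other p53 targets, 2 were called higher and 9 lower, among them *RAP2B* (1.81 ± 0.16, adjusted p = 3.06e-07), *CDIP1* (-1.05 ± 0.34, adjusted p = 0.0349), *CD82* (-0.98 ± 0.12, adjusted p = 1.19e-05), *RPS27L* (-0.77 ± 0.22, adjusted p = 0.0182) and *KITLG* (-0.67 ± 0.13, adjusted p = 0.00130). The *CDIP1* call was lost without any single siBACH1 library, siCont replicate 1 or sgBACH1 replicate 1 or 3 (adjusted p = 0.0536 to 0.0913) and the *RPS27L* call without siBACH1 replicate 1, siCont replicate 1, sgBACH1 replicate 2 or sgCont replicate 1 or 3 (adjusted p = 0.0509 to 0.0616).

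All 4 called cell cycle genes of 15 were *AURKB* (0.57 ± 0.16, adjusted p = 0.0151), *CDK1* (0.47 ± 0.11, adjusted p = 0.00580), *MKI67* (0.37 ± 0.11, adjusted p = 0.0252) and *CCNB1* (-0.33 ± 0.11, adjusted p = 0.0375), 3 higher and 1 lower. The *AURKB* call was lost without siBACH1 replicate 2 or sgBACH1 replicate 1 (adjusted p = 0.0501 to 0.0624), the *MKI67* call without siBACH1 replicate 2, sgBACH1 replicate 2 or 3 or sgCont replicate 1 (adjusted p = 0.0504 to 0.0765) and the *CCNB1* call without siBACH1 replicate 1 or 3, siCont replicate 1, sgBACH1 replicate 1 or 2 or sgCont replicate 1 or 3 or with no filter on low counts (adjusted p = 0.0528 to 0.120). All 5 called repair genes of 17 were *RNF168* (1.02 ± 0.14, adjusted p = 5.00e-05), *MDC1* (0.57 ± 0.15, adjusted p = 0.00898), *ERCC1* (-0.57 ± 0.16, adjusted p = 0.0141), *BRCA1* (-0.57 ± 0.14, adjusted p = 0.00661) and *XRCC5* (-0.53 ± 0.088, adjusted p = 0.000290), 2 higher and 3 lower, and the *ERCC1* call was lost without siBACH1 replicate 3 (adjusted p = 0.0528).

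Of 9 integrated stress response genes, high in siCont replicate 2, 5 were called lower. The values were -2.59 for *ASNS*, -2.59 for *TRIB3*, -2.25 for *ATF3*, -2.42 for *PSAT1* and -2.20 for *DDIT4*. Without siCont replicate 2 they were -0.67, -0.53, -1.42, -1.26 and -1.13. The *ASNS* call was lost without any single siBACH1 library, any single sgBACH1 library or any single sgCont library, with limma-voom or with the replicate block (adjusted p = 0.0511 to 0.197), the *TRIB3* call without any single siBACH1 library, any single sgBACH1 library or any single sgCont library, with limma-voom or with the replicate block (adjusted p = 0.0566 to 0.228), the *ATF3* call without siBACH1 replicate 2, siCont replicate 2, sgBACH1 replicate 1 or 2 or sgCont replicate 1, with limma-voom or with the replicate block (adjusted p = 0.0505 to 0.117) and the *DDIT4* call with limma-voom (adjusted p = 0.101).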

How the results depend on the processing

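The counts of called genes were within 1.5 times the main count under other scalings, a minimum count of 30, DESeq2 and limma-voom. Without a filter on low counts, 15 of the 31 genes were called after siRNA, 11 of them lower, against 11.3% of all 35221 genes then tested, and the genes gained were *CDKN1A*, *EPHA2*, *FAS*, *SFN*, *TNFRSF10A* and *TNFRSF10B*. The counts of these genes were the same in both fits. Their p-values with no filter are not taken to measure the spread between libraries. In the fit over all 12 libraries, 10 genes were called after siRNA (1 higher, 9 lower), against 22.1% of all genes. In the knockout 9 were called (8 higher, 1 lower), against 21.9%. Leaving out each library gave 5 to 15 calls after siRNA (1 to 6 higher, 4 to 9 lower), against 13.2% to 33.9% of all genes. In the knockout it gave 8 to 13 (7 to 11 higher, 1 to 3 lower), against 16.5% to 23.7%. For the difference it gave 8 to 11 (2 to 3 higher, 6 to 9 lower), against 18.1% to 24.5%. The only called value that reversed was *GDF15* after siRNA, at 2.13 without siCont replicate 2, its values with each library left out ranging from -0.97 to 2.13. For the difference of *GDF15*, limma-voom gave -2.29 (adjusted p = 0.150) and the replicate block -2.52 (adjusted p = 0.0579), both without a call, and DESeq2 gave no adjusted p. The cause was not tested. With the replicate number as a block, 11 of the 31 genes were called after siRNA (3 higher, 8 lower), against 21.9% of all genes. In the knockout 13 were called (10 higher, 3 lower), against 24.4%, and for the difference 11 (2 higher, 9 lower), against 22.5%. The block added *FAS* and *TNFRSF10B* after siRNA and *EPHA2* in the knockout, and ended the *GDF15* difference. Libraries with the same number did not deviate together, with correlations across genes of 0.059, 0.038 and 0.011 after siRNA and -0.0026, 0.034 and 0.051 in the knockout, so the numbers are not taken to pair libraries, and not every library correlated best with its own number. Over all genes, leaving out siBACH1 replicate 1, 2 or 3 gave 2002, 2078 and 2096 calls after siRNA against 3481. Sign changes of values called in neither setting are not counted as reversals. A minimum count of 30 removed *TP53INP1*, whose counts are the fewest of the set. Depth limits that gene most.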

Other observations

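The control groups of the 2 experiments differed in the levels of several of these genes, with no treatment shared between them and no test made. *PLK2*, the stress-responsive polo-like kinase gene, had a mean of 77.5 CPM in siCont and 408 CPM in sgCont. *ZMAT3*, an RNA-binding protein gene, stood at 5.43 and 13.6 CPM, and its sgBACH1 mean was 15.9 CPM. *BTG2*, the antiproliferative gene, went the other way with 10.5 and 5.94 CPM, while its means after BACH1 depletion were close, at 14.9 CPM in siBACH1 and 14.5 CPM in sgBACH1. For *GDF15*, the cytokine gene, the means after depletion were also close, at 14.3 and 15.1 CPM. In the controls it stood at 1.59 CPM in sgCont and at 3.24 CPM in the mean of siCont replicates 1 and 3. Experiment, control reagent and culture cannot be told apart in these control levels.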
